A study of Rattus norvegicus with 16 samples.

Results

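Nqo1 encodes NAD(P)H quinone dehydrogenase, also called quinone reductase or DT-diaphorase, and it is 1 of 4736 genes named on the array. All probe sets with this symbol in the platform annotation were taken, which gave 2 of 8740, and only J02679_s_at of them passed the filter on dim probe sets. The other, M58495mRNA_at, did not. Liver RNA came from 16 male Fischer F344 rats, 6 weeks old on arrival, that were randomly assigned to 4 groups of 4 and singly housed. The D3T group was gavaged with the unsubstituted dithiolethione ring, the OLT group with oltipraz, whose ring bears pyrazinyl and methyl substituents, and the TBD group with the tert-butyl dithiolethione, each at 0.3 mmol/kg. The vehicle group received saturated sucrose by the protocol, although its samples are titled as untreated. Each rat was dosed every other day over 5 days, and livers were frozen 24 h after the last of 3 doses. Each rat gave 1 array in 1 colour, so p-values measure animal and technical spread together.

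NQO1 is a cytosolic flavoprotein that reduces quinones with NADH or NADPH in a single transfer of an electron pair, so that the hydroquinone forms without the semiquinone radical. The hydroquinone can then be conjugated with glucuronic acid or sulfate. The gene is a classical target of the transcription factor NRF2, which is held in the cytoplasm by KEAP1 until electrophiles modify KEAP1 cysteines. It also belongs to the gene battery of the aryl hydrocarbon receptor. Dithiolethiones are known as inducers of NRF2 targets, and hepatic NQO1 activity has long been used as a readout of such inducers.

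The stretch just before the gene is shown because both pathways act through DNA elements upstream of Nqo1. The 250 bases before the RefSeq start of rat Nqo1 (GRCr8, chr19:52220268-52220517, minus strand, read along the gene) hold matches to 3 of the 4 motifs searched, which are in capitals.
Nqo1: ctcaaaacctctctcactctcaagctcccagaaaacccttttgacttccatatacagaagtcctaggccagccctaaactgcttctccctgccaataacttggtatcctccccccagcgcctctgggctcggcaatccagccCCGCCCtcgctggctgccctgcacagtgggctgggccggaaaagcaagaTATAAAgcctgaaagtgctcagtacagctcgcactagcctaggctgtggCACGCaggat
Motifs were searched on both strands of the same 250 bases in 33469 promoters. The TATA box TATAAA matched once in Nqo1 and in 12.9% of promoters, and the GC box GGGCGG matched once, on the opposite strand, and in 30.5% of promoters. The xenobiotic response element core GCGTG, the letters bound by the aryl hydrocarbon receptor, matched once on the opposite strand and in 25.9% of promoters. The antioxidant response element core TGACNNNGC, the letters bound by NRF2, had 0 matches in this window and was found in 10.1% of promoters. The element for which the rat gene is known lies farther upstream than this window. No motif overlapped another in Nqo1.

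Values are log2 GCRMA expression values as deposited. The median of an array was between 3.27 and 3.58. Within a group, pairs of arrays had r of 0.983 to 0.997 over the probe sets, as a description only. The second principal component, with 13% of the variance, set 2 arrays apart, OLT replicate 1 at 21.7 and TBD replicate 4 at 21.8, against -14.1 to 12.6 on the other arrays. Nqo1 differences between groups are given with and without them where they differ.

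All 4 D3T livers read high for Nqo1, at 8.29, 8.13, 7.29 and 8.23 for replicates 1 to 4 of J02679_s_at. The OLT livers read 7.53, 5.19, 7.03 and 6.36. The TBD livers read 4.53, 7.56, 6.90 and 8.79. The vehicle livers read 4.77, 4.30, 4.39 and 4.02, the narrowest range of the groups. The D3T and OLT groups lay wholly above the vehicle group. TBD did not, because TBD replicate 1 read within the vehicle range while the other 3 TBD livers lay above it. The highest Nqo1 value of the study and a vehicle-like value thus both came from the TBD group. Mean levels were 7.99 ± 0.47 with D3T, 6.53 ± 1.01 with OLT, 6.95 ± 1.79 with TBD and 4.37 ± 0.31 with vehicle (SD, n = 4 each). By level the order was D3T, TBD, OLT and vehicle. J02679_s_at lay above the median of its array on all 16 arrays. In whole liver RNA, more cells with Nqo1 and more Nqo1 RNA per cell cannot be told apart.

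**Figure D1:**
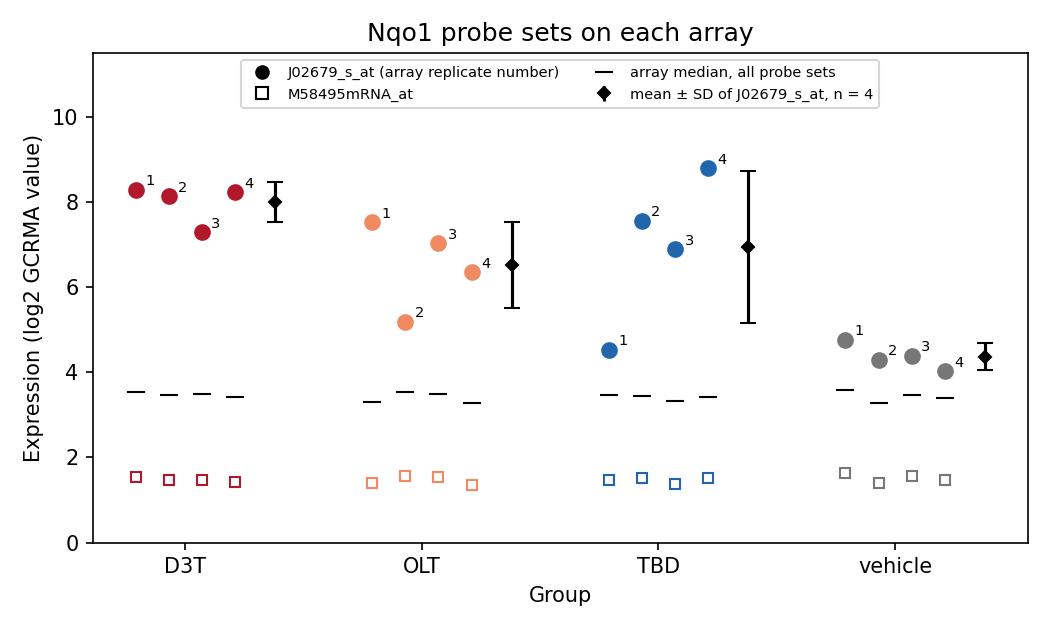
Log2 expression of the 2 Nqo1 probe sets on each of the 16 arrays by group, with replicate numbers, each array's median over all probe sets and the mean ± SD of J02679_s_at (n = 4). The 4 D3T arrays lie between 7.29 and 8.29, while TBD spans 4.53 to 8.79 and M58495mRNA_at stays between 1.35 and 1.64 on every array.

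M58495mRNA_at read between 1.35 and 1.64 on the 16 arrays, below the 40th percentile of its array on all of them. Its groups overlapped in all 6 comparisons. Its means were 1.47 ± 0.05 with D3T, 1.46 ± 0.10 with OLT, 1.47 ± 0.06 with TBD and 1.52 ± 0.11 with vehicle. Tested without the filter, its log2 differences from vehicle were -0.04, -0.06 and -0.05 for D3T, OLT and TBD (limma, adjusted p from 0.871 to 0.967). The probe set gave no measure of Nqo1 in any group, and averaging it with J02679_s_at shrank the differences to 1.79, 1.05 and 1.26.

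The first question was how far Nqo1 with each dithiolethione lay from vehicle. D3T raised Nqo1 12.3-fold (95% interval 4.41 to 34.1), a log2 difference of 3.62 ± 0.69 (SE, limma with Benjamini-Hochberg adjustment, adjusted p = 0.00226), and all 4 D3T livers lay above all 4 vehicle livers. Of 5323 probe sets tested, 18.4% passed the threshold of an adjusted p under 0.05 in this comparison, 6.18% higher and 12.2% lower. On 9.07% all 4 D3T arrays lay above the vehicle arrays. The Nqo1 rise was 9th in size among the probe sets tested and 268th by p. The rise passed in all 16 fits that left out 1 array, at 3.50 to 3.85. A two-sided exact permutation test of the 8 arrays gave p = 0.0286, the smallest that 4 against 4 arrays allow, and 0.0857 adjusted over 6 comparisons.

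With OLT, Nqo1 differed from vehicle by 2.16 ± 0.69 on the log2 scale, a 4.47-fold difference with a 95% interval of 1.60 to 12.4, and did not pass the threshold (limma, adjusted p = 0.0581). All 4 OLT livers lay above all 4 vehicle livers, as 4.88% of probe sets did, and the exact permutation p was 0.0286 (0.0857 adjusted over 6 comparisons). In this comparison 11.3% of probe sets passed, 3.38% higher and 7.89% lower. The call turned on the spread that all groups share in the fit. Fitted on the 8 OLT and vehicle arrays alone, the same difference had an SE of 0.44 and passed (limma, adjusted p = 0.0178). It also passed without TBD replicate 1 (2.16, adjusted p = 0.00889), without TBD replicate 4 (2.16, adjusted p = 0.0248) and without OLT replicate 2, the lowest OLT liver (2.60, adjusted p = 0.0375). Without OLT replicate 1 the difference was 1.82 (adjusted p = 0.142), and without both OLT replicate 1 and TBD replicate 4 it was 1.82 (adjusted p = 0.0654).

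TBD raised Nqo1 5.96-fold (95% interval 2.14 to 16.6), a log2 difference of 2.58 ± 0.69 (limma, adjusted p = 0.0228), with 3 of 4 TBD livers above all vehicle livers. In this comparison 13.0% of probe sets passed, 3.55% higher and 9.47% lower, and 3.98% had all TBD arrays above the vehicle arrays. Fitted on the 8 TBD and vehicle arrays alone, the SE was 0.78 and the call was lost (adjusted p = 0.0916). The call was also lost without TBD replicate 2 (2.37, adjusted p = 0.0678), without vehicle replicate 2 (2.55, adjusted p = 0.0597) and without vehicle replicate 4 (2.46, adjusted p = 0.0623). Leaving out TBD replicate 1 gave 3.38 ± 0.51 (adjusted p = 0.000874), and leaving out TBD replicate 4 gave 1.96 ± 0.63 (adjusted p = 0.0497). The exact permutation p was 0.0571 (0.0857 adjusted over 6 comparisons).

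**Figure D2:**
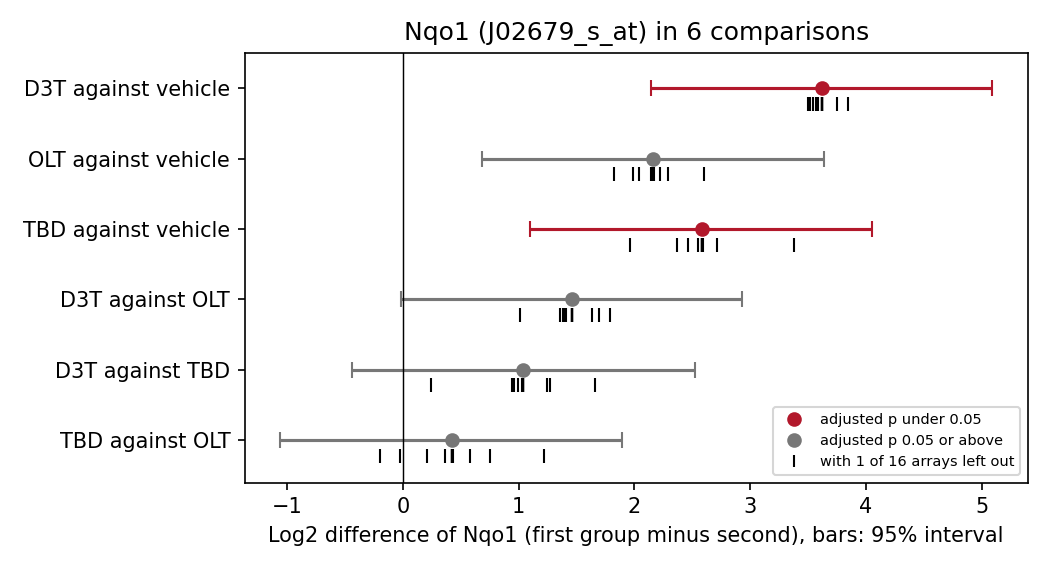
Log2 differences of J02679_s_at in the 6 comparisons, first group minus second, with 95% intervals of the fit over all 16 arrays and, as ticks, the differences with 1 of 16 arrays left out. D3T and TBD against vehicle passed at 3.62 and 2.58, and for TBD against OLT the ticks lie on both sides of 0.

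The next question was whether the substituents on the ring went with different Nqo1 levels at the shared dose and time. None of the 3 pairs of compounds passed the threshold over all probe sets or over the pairs. D3T, the bare ring, read 7.99 ± 0.47 against 6.53 ± 1.01 with OLT (SD, n = 4 each), a log2 difference of 1.46 with a 95% interval of -0.02 to 2.93 (limma, adjusted p = 0.415, and 0.158 over the 3 pairs). In that comparison 1.07% of probe sets passed, 0.395% higher and 0.676% lower, so that 36.8% of the calls were higher, against 73.2% with each array's 40th percentile as a covariate. D3T exceeded TBD by 1.04 (95% interval -0.44 to 2.52, adjusted p = 0.621, and 0.230 over the pairs), with 0.658% of probe sets passing, 0.188% higher and 0.47% lower, and its share of higher calls was 28.6%, against 72.6% with that covariate. Without TBD replicate 4 that difference was 1.66 and without TBD replicate 1 it was 0.24. TBD exceeded OLT by 0.42 (95% interval -1.06 to 1.89, and 0.555 over the pairs), with 0.0564% of probe sets passing, all lower. The sign of that difference turned without TBD replicate 4 (-0.20) or OLT replicate 2 (-0.03). Without both OLT replicate 1 and TBD replicate 4, D3T exceeded OLT by 1.79 and TBD by 1.66. TBD then exceeded OLT by 0.14, and none of these passed. The upper bounds allow D3T to exceed OLT by up to 7.65-fold and TBD by up to 5.73-fold, so alike levels were not shown. Neighbours in the order D3T, TBD and OLT therefore did not differ beyond the spread between livers.

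Nqo1 varied more between OLT livers and between TBD livers than most probe sets did. The lowest and highest livers differed 2.00-fold with D3T, 5.08-fold with OLT, 19.2-fold with TBD and 1.68-fold with vehicle. Only 23 of 5323 probe sets tested had a larger SD than Nqo1 in the TBD group and 66 in the OLT group, against 245 in D3T and 1219 in vehicle. The median SD of probe sets was 0.105 with D3T, 0.186 with OLT, 0.159 with TBD and 0.180 with vehicle. The mean absolute deviation of Nqo1 from the group median was 0.27 with D3T, 0.75 with OLT, 1.23 with TBD and 0.21 with vehicle. A two-sided exact permutation test of these deviations against vehicle gave p = 0.743 for D3T, 0.114 for OLT and 0.171 for TBD (0.743, 0.257 and 0.257 adjusted over the 3 comparisons). After renewed quantile normalization the OLT and TBD tests reached the smallest p that the design allows and passed (exact permutation test, adjusted p = 0.0429 for both). The excess over vehicle was also smaller without single livers. For OLT it was 0.54 but 0.18 without OLT replicate 2, and for TBD 1.02 but 0.42 without TBD replicate 1. Their exact permutation tests gave adjusted p = 0.6 and 0.514, but with 1 liver left out this test cannot reach a p under 0.05. OLT replicate 2 and TBD replicate 1 are the lowest livers of their groups, so leaving them out narrows the range by itself. Among the settings run, a greater spread with OLT or TBD than with vehicle passed only after renewed quantile normalization.

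TBD replicate 1 reached 6.16% of the group's mean log2 rise of Nqo1 over vehicle. Of the 32 other listed NRF2 targets tested, taken whether or not they passed, 16 lay above all vehicle livers in TBD replicate 1, 7 within the vehicle range and 9 below it. The numbers above all vehicle livers were 18, 21 and 19 in TBD replicates 2 to 4. Among all 3104 genes 13.1% lay above all vehicle livers in TBD replicate 1, 55.8% within the vehicle range and 31.2% below it. The 9 of 32 below are thus near the share of all genes. In TBD replicates 2 to 4 the shares of all genes above were 13.6%, 16.3% and 14.2%. TBD replicate 1 was the lowest TBD liver for 14 of the 32 targets, against 20.4% of all genes. Akr7a3, which reduces aflatoxin dialdehyde, read 11.47 there, against 12.01, 12.43 and 12.20 in TBD replicates 2 to 4 and 8.46 ± 0.08 in vehicle livers (SD, n = 4). Epoxide hydrolase Ephx1 read 12.36 there, against 11.20 ± 0.10 in vehicle livers. These 2 genes thus read above vehicle in the liver whose Nqo1 did not. The glutamate-cysteine ligase Gclc (7.52) and the thioredoxin reductase Txnrd1 (8.28) lay within the vehicle range in that liver. Unlike Nqo1, neither passed in the TBD group (differences of 0.41 and 0.34, limma, adjusted p = 0.855 and 0.86). TBD replicate 2 did not lie above the vehicle range for them either, at 7.78 and 7.92.

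OLT replicate 2 reached 38.1% of the OLT group's mean rise of Nqo1. It was the lowest OLT liver for 16 of the 32 other targets, against 20.3% of all genes. There 17 of the 32 lay above all vehicle livers, against 23, 19 and 23 in OLT replicates 1, 3 and 4. Over all genes the order was another. In OLT replicate 2 21.7% lay above all vehicle livers, against 15.1%, 12.1% and 14.2% in replicates 1, 3 and 4. The glutathione transferase Gstp1 read 9.36, 6.61, 8.92 and 8.43 in OLT replicates 1 to 4 and 6.13 ± 0.14 in vehicle livers. In the D3T group replicate 3 was lowest for Nqo1 at 80.8% of the rise, but replicates 2 and 3 were each lowest for 10 of the 32 targets. Of all genes, 17.9% were lowest in D3T replicate 2 and 14.4% in replicate 3.

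The OLT and TBD livers highest in Nqo1 were the highest of their group for some of the other targets. OLT replicate 1 was highest for 20 of the 32 and TBD replicate 4 for 14, against 23.9% and 29.2% of all genes. TBD replicate 3, below replicates 2 and 4 in Nqo1, was highest for 12 of the 32. The D3T group did not show this. Its liver highest in Nqo1, replicate 1 at 8.29, was highest for 4 of the 32, against 41.2% of all genes. D3T replicate 4, with Nqo1 at 8.23, was highest for 19, against 9.99% of all genes. TBD replicate 4, with Nqo1 at 8.79, read 10.34 for Txnrd1, against 7.92 to 8.74 in the other TBD livers. Its Gclc read 9.69, against 6.87 to 7.78, and its heme oxygenase Hmox1 read 5.88, against 3.59 to 3.64. OLT replicate 1, with Nqo1 at 7.53, read 9.76 for Gclc, against 7.81 to 8.29 in the other OLT livers, and 9.43 for Txnrd1, against 8.09 to 8.90. TBD replicate 4 was not highest for Akr7a3 or Ephx1 (12.77, against 13.24 in replicate 3). It was also the lowest TBD liver for 8 of the 32, against 14.2% of all genes. The D3T liver highest in Nqo1, replicate 1, was lowest of its group for Txnrd1, at 8.27 against 8.34 to 9.63. OLT replicate 1 and TBD replicate 4 are the 2 arrays that stood apart on the second component, where TBD replicates 1 to 4 lay at -6.8, 0.4, 8.7 and 21.8 and OLT replicates 1 to 4 at 21.7, -8.6, 1.0 and 12.6. The lowest Nqo1 liver of the OLT and TBD groups was thus also the lowest on that component, and the highest the highest. Array medians did not follow Nqo1 in the TBD group, with 3.46, 3.45, 3.33 and 3.41 for replicates 1 to 4, while in the OLT group replicate 2 had the highest median at 3.54, against 3.30, 3.49 and 3.28 for replicates 1, 3 and 4. The part of array quality in this spread was not tested.

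The genes whose levels ran most like Nqo1 over the 16 arrays were, in order, the glutathione transferase Gsta3, the ribosomal protein genes Rpsa and Rpl7a, and the glutathione transferases Gstp1 and Gsta1. Pearson's r was 0.96, 0.96, 0.93, 0.90 and 0.89, and Spearman's rho 0.91, 0.94, 0.86, 0.89 and 0.80. Without the 2 arrays farthest from the Nqo1 median, r lay between 0.87 and 0.95. These probe sets were picked out of all those tested for their likeness, so the values describe and carry no test. Gsta3 was read by S72506_s_at, and its other probe sets followed Nqo1 at r of 0.84 and 0.85. Probe sets of alpha class transferases can cross-hybridise, so which member they read is uncertain.

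After the group means were taken out, the closest were Rpsa, Gsta3, Rpl31, Sult2a1 and Gstp1, with r of 0.93, 0.89, 0.88, 0.88 and 0.87 (rho 0.79, 0.70, 0.82, 0.84 and 0.73) over the 16 deviations. Without the 2 farthest arrays r was 0.84, 0.84, 0.85, 0.65 and 0.78. Gsta3 on S72506_s_at read 8.90, 4.39, 7.01 and 7.37 in OLT livers and 5.31, 7.96, 8.25 and 9.19 in TBD livers, with a vehicle mean of 3.35. It was lowest in the same OLT and TBD livers as Nqo1 and highest in the same ones. In TBD replicate 1 Gsta3 reached 45.3% of its group's rise and Gstp1 56.7%, and in OLT replicate 2 they reached 29.1% and 21.6%. The ribosomal genes moved on a much smaller scale: Rpsa on D25224_g_at deviated by -0.36 in TBD replicate 1 and -0.23 in OLT replicate 2, and its other probe set followed the Nqo1 deviations at r of 0.61. The sulfotransferase Sult2a1, which read 8.15, 9.95 and 8.51 with D3T, OLT and TBD and 11.67 with vehicle, was opposed to Nqo1 between groups (r of -0.39 over levels) but ran with it inside them. Of its 3 other probe sets, 2 followed the Nqo1 deviations at r of 0.65 and 0.64 and the dimmest did not (-0.34).

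**Figure D3:**
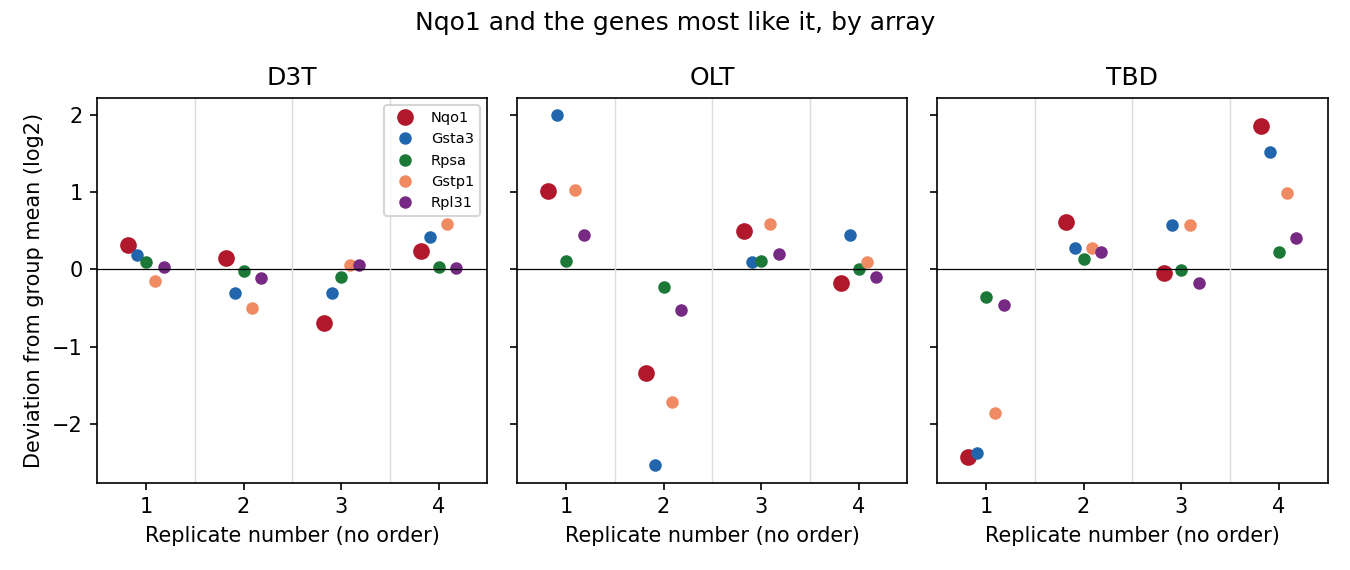
Deviation of Nqo1, Gsta3 (S72506_s_at), Rpsa, Gstp1 and Rpl31 from their own group mean (log2) on each array of the 3 compound groups; replicate numbers have no order. Nqo1, Gsta3 and Gstp1 lie lowest in OLT replicate 2 and TBD replicate 1, where Nqo1 deviates by -1.34 and -2.42.

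Nqo1 was then placed among the targets of NRF2. Of 54 listed targets 33 were tested, Nqo1 included. With D3T 15 rose and 2 fell, at a median difference of 0.67, against 4.61% of all 3104 genes higher and 13.1% lower and a median of 0.03. With OLT 13 rose and 1 fell (median 0.55, against 2.61% higher and 8.92% lower of all genes and a median of -0.03). With TBD 12 rose and 2 fell (median 0.51, against 2.80% and 10.0% of all genes and a median of -0.02). With D3T only Gsta3 (8.30 ± 0.45 on S82820mRNA_s_at, its brightest probe set), Gstp1 (6.38 ± 0.59) and Akr7a3 (4.77 ± 0.32) of the list had larger differences than Nqo1. Steroid dehydrogenase Akr1c14 fell with each compound (-0.86, -0.57 and -0.71), and prostaglandin reductase Ptgr1 fell with TBD (-1.73 ± 0.33, adjusted p = 0.00298). Gclm, the modifier subunit of glutamate-cysteine ligase, differed by 0.50, 0.50 and -0.09 and Hmox1 by -0.06, 0.00 and 0.42 with D3T, OLT and TBD, and neither passed.

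**Figure D4:**
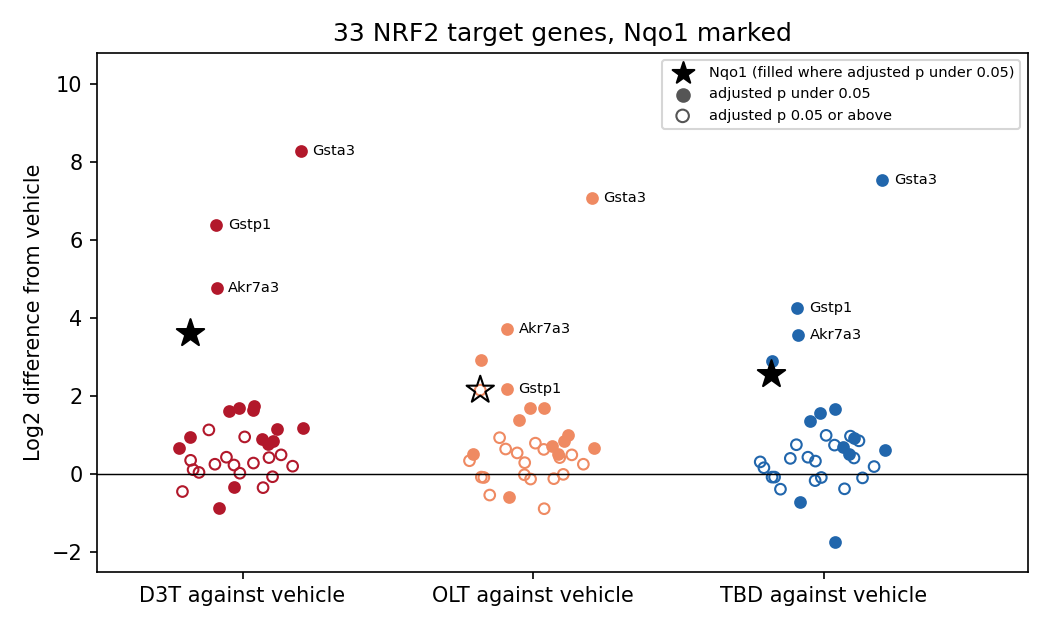
Log2 differences from vehicle of the 33 NRF2 target genes tested, by compound, with filled points past an adjusted p of 0.05, Nqo1 as a star and sideways spread for legibility only. Nqo1 lies at 3.62, 2.16 and 2.58, below Gsta3 with each compound.

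Among 8 listed quinone and carbonyl reductases 5 were tested, Nqo1 included. For comparison, 4.61%, 2.61% and 2.80% of all genes rose and 13.1%, 8.92% and 10.0% fell with D3T, OLT and TBD. Nqo1, Akr7a3 and its relative Akr7a2 (0.63 ± 0.13 with D3T, 0.47 ± 0.13 with TBD) rose with D3T and TBD, and Akr7a3 alone passed with OLT (3.73 ± 0.32). Carbonyl reductase Cbr1 differed by 0.21, 0.26 and 0.20 and aldose reductase Akr1b1 by 0.10, 0.17 and 0.23 with D3T, OLT and TBD, without passing. Of 7 enzymes listed for transferring single electrons to quinones or sharing such flavin chemistry, 4 were tested. Por, the cytochrome P450 reductase, which forms the semiquinone that NQO1 bypasses, fell with all 3 compounds (-1.25 ± 0.28, -1.52 ± 0.28 and -1.65 ± 0.28, adjusted p = 0.00675, 0.00322 and 0.00156, limma). Cytochrome b5 reductase Cyb5r3 differed by 0.64, 0.37 and 0.48 and did not pass, nor did the other two.

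Of 7 suppliers of NADPH tested out of 10 listed, 2 rose and 1 fell with D3T, 1 rose with OLT and 2 rose with TBD. Of all genes 4.61%, 2.61% and 2.80% rose and 13.1%, 8.92% and 10.0% fell with D3T, OLT and TBD. Transketolase Tkt rose with each (1.62 ± 0.32, 1.39 ± 0.32 and 1.37 ± 0.32). The formyltetrahydrofolate dehydrogenase Aldh1l1 rose with D3T and TBD (1.57 ± 0.27 and 1.13 ± 0.27), and isocitrate dehydrogenase Idh1 fell by 0.32 with D3T. Of 6 genes of hydroquinone conjugation tested out of 11, 4 rose with D3T, 4 with OLT and 3 with TBD, and 0 fell (limma). At an unadjusted p under 0.05, for which no share of all genes was taken, 1 was lower with OLT. The glucuronosyltransferase Ugt2b1 rose by 0.95 ± 0.28, 2.94 ± 0.28 and 2.90 ± 0.28, and UDP-glucose dehydrogenase Ugdh by 1.17 ± 0.28 and 1.00 ± 0.28 with D3T and OLT. Against the other two compounds D3T gave less Ugt2b1, by -1.99 against OLT and -1.95 against TBD (limma, adjusted p = 0.00232 and 0.00405), whereas Gstp1 was higher with D3T than with OLT by 4.18 (adjusted p = 0.00232). The sulfotransferases Sult1a1 and Sult1b1 passed with none.

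Few regulators of NRF2 could be read. Of 20 listed regulators of NRF2 signalling, 6 were tested and 0 passed with any compound at an adjusted p under 0.05 (limma). At an unadjusted p under 0.05, 2, 1 and 1 were lower with D3T, OLT and TBD. No share of all genes was taken at that unadjusted threshold, so these counts cannot be read against a background. As 4.61%, 2.61% and 2.80% of all genes passed higher and 13.1%, 8.92% and 10.0% lower, 0 of 6 is near the background, and Keap1 was not among those tested. Nfe2l2, the gene of NRF2, read 5.96 ± 0.45 with D3T, 7.01 ± 0.41 with OLT, 6.71 ± 0.62 with TBD and 6.70 ± 0.40 with vehicle, and differed from vehicle by -0.74, 0.31 and 0.01. In the aryl hydrocarbon receptor battery 6 of 11 genes were tested. Cyp1a2, a gene induced by that receptor, read 9.03 ± 0.66 with D3T, 12.00 ± 0.25 with OLT, 9.46 ± 0.25 with TBD and 11.23 ± 0.42 with vehicle. It thus fell with D3T and TBD (-2.20 ± 0.28 and -1.76 ± 0.28) and differed by 0.77 with OLT (limma, adjusted p = 0.0997). Cyp1a2 was lower with D3T than with OLT and lower with TBD than with OLT (-2.96 and -2.53, limma, adjusted p = 6.68e-05 and 0.000728). Ahr, Arnt and Cyp1b1 passed with none.

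Markers of liver cell types were read beside Nqo1. Of 10 hepatocyte markers tested, 2 rose and 1 fell with D3T, 2 fell with OLT and 1 fell with TBD. Over all genes 13.1%, 8.92% and 10.0% fell and 4.61%, 2.61% and 2.80% rose with D3T, OLT and TBD, so the hepatocyte counts of falls are near the background. Of 8 macrophage markers tested 4 fell and 0 rose with each compound, and their summed level on the linear scale lay at 1410 to 1700 with D3T, 1320 to 1780 with OLT, 1470 to 1920 with TBD and 2500 to 3560 with vehicle. Of 5 stellate cell markers tested 3, 2 and 3 fell with D3T, OLT and TBD, and of 5 endothelial markers 2, 0 and 1. Of 5 cholangiocyte markers, 4 leukocyte markers and 1 red blood cell marker tested, 0 passed in either direction with any compound (limma). At an unadjusted p under 0.05, 1 cholangiocyte marker was higher with TBD and the red blood cell marker was lower with D3T. Of the leukocyte markers, 1 was then lower with OLT, and 1 was higher and 1 lower with TBD. No share of all genes was taken at that unadjusted threshold. The summed macrophage level ordered the TBD livers as Nqo1 did, with 1470, 1720, 1660 and 1920 in replicates 1 to 4. It did not do so in the OLT group, with 1650, 1610, 1320 and 1780 in replicates 1 to 4. The summed hepatocyte level ran against Nqo1 within the OLT and TBD groups. It was 144000, 175000, 155000 and 171000 in OLT replicates 1 to 4, highest in the liver lowest in Nqo1. In TBD replicates 1 to 4 it was 183000, 165000, 173000 and 157000, again highest in the liver lowest in Nqo1. The D3T group did not show this, with 181000, 187000, 180000 and 178000 in replicates 1 to 4. Between groups the D3T sums lay above those of vehicle, which were 152000 to 171000. The summed level of 6 endothelial markers was 269, 353, 340 and 514 in TBD replicates 1 to 4, again in the order of Nqo1. In OLT replicates 1 to 4 it was 402, 958, 348 and 420, highest in the liver lowest in Nqo1. The receptor gene Kdr carried that value, and without Kdr the OLT sums were 333, 290, 269 and 349. Without Kdr the TBD sums were 222, 194, 245 and 362 in replicates 1 to 4, no longer in the order of Nqo1. For 3 red blood cell markers, 1 of which was tested, the sums were 12800, 11000, 5750 and 6050 in TBD replicates 1 to 4. The liver lowest in Nqo1 was thus highest, but TBD replicate 2, with Nqo1 at 7.56, came next. The part of these markers in the Nqo1 differences was not tested.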

How the data were processed

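Expression was measured on 16 one-colour arrays, 1 per rat. The authors deposited log2 values for 8740 probe sets that came from GCRMA, as the submitters' processing notes name it, with no version found there or in the labels. GCRMA usually models background from probe sequence, applies quantile normalization and combines the probes of each set, which compresses differences near background. The values ranged between -1.21 and 15.9, were taken without further scaling, and all columns belonged to a sample. Scan dates and detection calls were not used here, so such batches were not tested. The number of arrays limits the precision.

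Names are those of the platform annotation: 7006 probe sets had 1 symbol, 308 had several and 1426 had none. Of those with 1 symbol, 6985 matched the RefSeq table of GRCr8 by Entrez ID. The promoter sequence is RefSeq's, of the same build. Testing was limited to the 5323 probe sets that exceeded their array's 40th percentile on 4 arrays or more. For gene lists, the brightest tested probe set stood for a gene. Linear models of the 4 groups (limma 3.58.1, R 4.3.3, residual df 12, prior df 2.41, two-sided) used all 16 arrays, with Benjamini-Hochberg adjustment over all probe sets tested, and SEs of differences are those of the fit. The fit was tested on simulated data. Exact permutation tests used scipy 1.17.1 with Python 3.11.15, and figures matplotlib 3.10.9.

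Groups came from the sample titles. The members, lists, likeness measures and rule for named genes were chosen with earlier results of these data known. That rule names up to 3 passing members per list, a set of genes whatever they show, and the 5 genes most like Nqo1 by each measure. Akr1c14, list members that did not pass, the single livers described and the genes under other observations were picked with their values already in view. All groups share replicate numbers, but the deviations of same-numbered arrays correlated between -0.524 and 0.323, so the numbers were not taken to pair animals.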

Additional observations from a re-analysis of the deposited data

Results flagged for a closer look

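D3T replicate 3 stood apart from the other D3T livers for Nqo1 (J02679_s_at). It read 7.29, against 8.29, 8.13 and 8.23, and its gap to the nearest of the others was 0.841 of the group's range, above Dixon's 95% critical value for 4 samples. Chance marks about 1 in 20 groups, and 8 groups (2 probe sets in 4 groups) were checked. Without that liver D3T exceeded vehicle by 3.85 on the log2 scale, against 3.62 with it.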

How the results depend on the processing

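Settings chosen after seeing the data were the left-out pair of OLT replicate 1 and TBD replicate 4 and each array's 40th percentile as a covariate. The D3T difference from vehicle kept its direction throughout and passed in every limma fit. By exact permutation tests adjusted over 6 comparisons, D3T (3.62) and TBD (2.58) against vehicle did not pass (both p = 0.0857). The unadjusted p was 0.0286 for D3T, the smallest that 4 against 4 arrays allow, and 0.0571 for TBD, whose arrays overlap those of vehicle. OLT against vehicle (2.16) passed with an intensity trend in the prior (2.16, adjusted p = 0.0483), array weights (2.25, 0.0100) and only the 8 arrays compared (2.16, 0.0178). The estimation of the array weights stopped before its convergence tolerance, which limits this result and the counts with array weights given below. Leaving out 1 array gave 1.82 to 2.60 for OLT. Without OLT replicate 1 and TBD replicate 4, OLT differed by 1.82 and TBD by 1.96 (adjusted p = 0.0654 and 0.0412). TBD against vehicle was lost with only the 8 arrays compared (2.58, 0.0916) and ranged over 1.96 to 3.38 with 1 array left out. TBD against OLT ranged over -0.20 to 1.22 with 1 array left out, turning sign without TBD replicate 4 (-0.20) or OLT replicate 2 (-0.03). The Nqo1 excess spread over vehicle was 0.56 for OLT and 1.06 for TBD after renewed quantile normalization, and passed. With 1 array left out it ranged over 0.18 (without OLT replicate 2) to 0.63 for OLT and 0.42 (without TBD replicate 1) to 1.21 for TBD. For D3T it turned negative for the mean of both probe sets (-0.01), and with 1 array left out it ranged over -0.16 to 0.15, negative without D3T replicate 3. The cause was not tested.

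Probe sets called moved by over 1.5 times with array weights: 2263 (D3T), 1066 (OLT) and 1333 (TBD) against vehicle, against 981, 600 and 693, and 171 (D3T against OLT) and 152 (D3T against TBD), against 57 and 35. With the 40th percentile as a covariate they were 1741 (D3T against vehicle), 149 and 117 (D3T against OLT and TBD). With array medians centred they were 361 (OLT against vehicle), 426 (TBD against vehicle) and 13 (D3T against TBD). With only the 8 arrays compared they were 361 (TBD against vehicle) and 8 (D3T against TBD). Renewed quantile normalization gave 92 for D3T against OLT, and leaving out OLT replicate 1 and TBD replicate 4 gave 88. With 1 array left out the ranges were 30 to 84 (D3T against OLT), 19 to 41 (D3T against TBD) and 3 to 6 (TBD against OLT). Higher calls against vehicle made up 33.5% (D3T), 30.0% (OLT) and 27.3% (TBD), but 52.9%, 46.5% and 44.9% after renewed quantile normalization, 43.8% and 41.8% (D3T and OLT) with medians centred, and 55.3% (D3T) with the covariate. For D3T against OLT and against TBD the share of higher calls was 36.8% and 28.6%, but 52.2% and 40% after renewed quantile normalization, 73.2% and 72.6% with the covariate, and 15.4% for D3T against TBD with medians centred. Counts of called NRF2 targets stayed within 1.5 times under all settings run. With a replicate block the adjusted p of Nqo1 was 0.0071, 0.0944 and 0.0449 for D3T, OLT and TBD against vehicle, which changed no call.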

Other observations

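The TBD livers that differed in Nqo1 also differed in genes outside the NRF2 list. Among the 23 probe sets with a larger SD than Nqo1 in the TBD group were both of fatty acid synthase Fasn, with M76767_s_at at 10.92, 10.62, 11.40 and 5.77 in TBD replicates 1 to 4 and a vehicle mean of 7.83. The clock output gene Dbp read 7.56, 6.34, 7.19 and 1.39 on J03179_g_at, with a vehicle mean of 8.41. A second Dbp probe set, J03179_at, was not among the 23. The 1.39 of TBD replicate 4 lies within the 1.35 to 1.64 of the dim M58495mRNA_at. The liver highest in Nqo1, TBD replicate 4, was lowest in both M76767_s_at and J03179_g_at. It was also highest in A2m, an acute-phase protein of the rat, at 9.46 against 5.09 to 5.84 in the other TBD livers, and in the serine synthesis enzyme Psat1, at 8.42 against 3.92 to 4.05. In the OLT group the stearoyl-CoA desaturase Scd read 4.91, 6.69, 5.23 and 7.49 in replicates 1 to 4, lowest in the liver highest in Nqo1, and in the TBD group it read 8.57, 5.90, 7.11 and 4.15, highest in the liver lowest in Nqo1. These genes were chosen after their values were seen.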
